A study of Mus musculus with 18 samples.

Results

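The 10 genes described here encode the interleukin-1 (IL-1) family cytokines that macrophages make and the inflammasome parts that process and release them. They are Il1a, Il1b, Il1rn, Il18, Il18bp, Nlrp3, Pycard, Casp1, Casp4 and Gsdmd, listed by name and matched by symbol to the Entrez identifiers of the deposited counts, and all 10 were found among the 24052 genes of each table. They were measured by 3′ end RNA sequencing in mouse bone marrow-derived macrophages, which are precursor cells of the marrow matured in culture with the growth factor M-CSF (20 ng/ml). Experiment 1 used wild-type C57BL/6 cells in 4 groups of 3 libraries. The DI + LPS group received dimethyl itaconate (DI, 0.25 mM) for 12 h and then LPS, bacterial lipopolysaccharide (100 ng/ml), for 4 h. The LPS group received vehicle and then LPS, the DI group received DI without LPS, and the vehicle group received neither agent. DI is a methyl diester of itaconate, a metabolite that activated macrophages make with the enzyme encoded by Acod1, also named Irg1. Experiment 2 set 3 libraries of Irg1-/- macrophages against 3 of wild-type macrophages, and the labels put both genotypes under LPS (100 ng/ml) with IFNg (50 ng/ml) for 24 h. The 2 experiments differ in agents, dose of cytokine and time, so levels are compared only within each.

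IL-1α and IL-1β bind the same receptor, and the receptor antagonist encoded by Il1rn occupies that receptor without signalling. IL-18 uses a receptor of its own and is neutralised by the secreted binding protein encoded by Il18bp. Macrophages are known to respond in steps: a priming signal such as LPS raises transcripts of Il1b and Nlrp3, and a second signal assembles NLRP3 with the adaptor ASC (Pycard) so that caspase-1 (Casp1) cuts pro-IL-1β, pro-IL-18 and gasdermin D (Gsdmd). Caspase-11, the product of mouse Casp4, binds LPS inside the cell and also cuts gasdermin D, which then forms pores in the membrane. Only RNA was measured here, so cleavage and secretion are outside these data.

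The promoter letters of 4 members are shown because they stand for the kinds of response described further on: a cytokine and its antagonist that were lower with DI under LPS by a like factor, a sensor whose difference did not pass the test, and a caspase with a difference of like size with and without LPS. They come from RefSeq on GRCm38.p6, run 5′ to 3′ on the gene's strand, and cover the bases before the annotated start. Il1b lies on the minus strand and its window is chr2:129371165-129371389, from 250 to 26 bases before the start, with capitals marking the TATAAA box. Il1rn is on the plus strand at chr2:24336610-24336859, with capitals marking a match to the AP-1 motif TGANTCA. For Nlrp3 the window of the second annotated start is given, chr11:59541319-59541568 on the plus strand, with capitals marking a kappaB match. For Casp4 the window of the first start is given, chr9:5308599-5308848 on the plus strand, with capitals marking kappaB matches, the first of which is an overlapping pair.
Il1b: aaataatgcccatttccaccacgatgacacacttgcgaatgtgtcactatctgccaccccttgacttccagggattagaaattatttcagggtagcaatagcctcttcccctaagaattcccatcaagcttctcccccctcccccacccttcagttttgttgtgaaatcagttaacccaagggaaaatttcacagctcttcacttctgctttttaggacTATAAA
Il1rn: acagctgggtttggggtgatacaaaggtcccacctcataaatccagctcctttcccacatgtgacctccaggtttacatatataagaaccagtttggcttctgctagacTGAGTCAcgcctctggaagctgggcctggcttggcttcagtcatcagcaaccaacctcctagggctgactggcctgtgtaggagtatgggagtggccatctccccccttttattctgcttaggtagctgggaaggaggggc
Nlrp3: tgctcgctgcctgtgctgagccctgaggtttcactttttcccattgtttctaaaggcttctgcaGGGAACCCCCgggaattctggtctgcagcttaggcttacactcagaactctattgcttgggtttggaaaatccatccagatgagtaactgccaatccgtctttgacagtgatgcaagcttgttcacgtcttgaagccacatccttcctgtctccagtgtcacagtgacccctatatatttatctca
Casp4: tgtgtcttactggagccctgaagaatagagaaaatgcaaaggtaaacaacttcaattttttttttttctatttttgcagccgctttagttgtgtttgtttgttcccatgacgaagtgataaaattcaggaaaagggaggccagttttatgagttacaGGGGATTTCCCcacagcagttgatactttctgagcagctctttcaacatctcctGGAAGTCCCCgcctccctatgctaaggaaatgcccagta

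RefSeq listed 13 starts for 9 of the 10 genes, and none for Gsdmd. The 250 bases before each start were searched on both strands for 5 motifs. The kappaB motif, bound by NF-kappaB proteins, was found in 2 members, Nlrp3 and Casp4, and in 7.25% of the 32851 windows of that length over all genes. AP-1 matches stood in Il1a and Il1rn, and in 6.75% of all windows. TATAAA stood in Il1a, Il1b and Il18, and in 12.4% of all windows. The Il1a window (chr2:129309973-129310222) overlaps the gene span given further on, and both Il1a matches lie inside that span. No member held TGACNNNGC, the core of the antioxidant response element, which stood in 10.2% of all windows, or the interferon-response motif of paired GAAA copies, which stood in 2.98%. A match is a description of the letters, and its absence says only that these letters are not in the window.

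The libraries held 955718 to 7629669 counts in experiment 1 and 3088644 to 5491684 in experiment 2. One library, LPS replicate 3, stood apart, with the fewest counts. Prdx1 made up 17.6% of them, against 3.81% and 3.28% in LPS replicates 1 and 2. That share was 9.27%, 8.70% and 14.1% in the DI + LPS libraries, 4.70% to 6.55% with DI and 1.34% to 2.03% with vehicle. The reason for the high share in LPS replicate 3 was not tested. For the comparisons that use the LPS group, values without this library are given too, in part as ranges or counts. Levels are CPM, a gene's counts per 1000000 counts of its library, with library sizes adjusted by TMM. Tests are edgeR quasi-likelihood tests, with p-values adjusted by the Benjamini-Hochberg method across the whole table, and genes with an adjusted p below 0.05 are named as called. The labels do not say whether replicates came from separate animals or cultures, so p-values measure the spread between these libraries, which may be technical. On the same TMM scale, macrophage markers (8 genes) summed to 4278 to 5397 CPM with DI + LPS, 4843 to 5121 with LPS, 2990.3 to 4039.6 with DI and 5153 to 7361 with vehicle. The neutrophil and progenitor list had 8 of 9 genes measured and summed to 272 to 395 CPM with DI + LPS, 249 to 361 with LPS, 155 to 252 with DI and 265 to 356 with vehicle. Both ranges lay lowest with DI, where the neutrophil range overlapped that of LPS, and for both lists the DI + LPS range overlapped the LPS range. Stromal markers (5 genes) summed to 25.1 to 37.8 CPM with DI + LPS, 19.7 to 69.0 with LPS, at most 25.4 with DI and 28.2 to 55.7 with vehicle. No library of experiment 1 exceeded 6.79 CPM for the sum of the dendritic cell list, 4.49 for mast cells and basophils, 2.81 for B cells or 1.32 for T and NK cells. Within these lists Flt3, Fcer1a, Cd3e, Ncr1 and Klrb1c had no count, and Siglech, with 78 counts, and Cd79b, with 43, had the most. Single genes of the macrophage list varied widely over the libraries of experiment 1. Cd14 ran from 25.4 to 924 CPM, Fcgr1 from 12.0 to 685 CPM and Lyz2 from 1208 to 4815 CPM, so the sum does not follow each marker. In bulk RNA, fewer cells of a type and less RNA per cell cannot be told apart. Actb, whose level was used to pool the libraries, lay between 3922 and 3970.0 CPM with DI + LPS and between 9894 and 18151 CPM with LPS, and the part of these marker and Actb differences in the results was not tested.

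**Figure D1:**
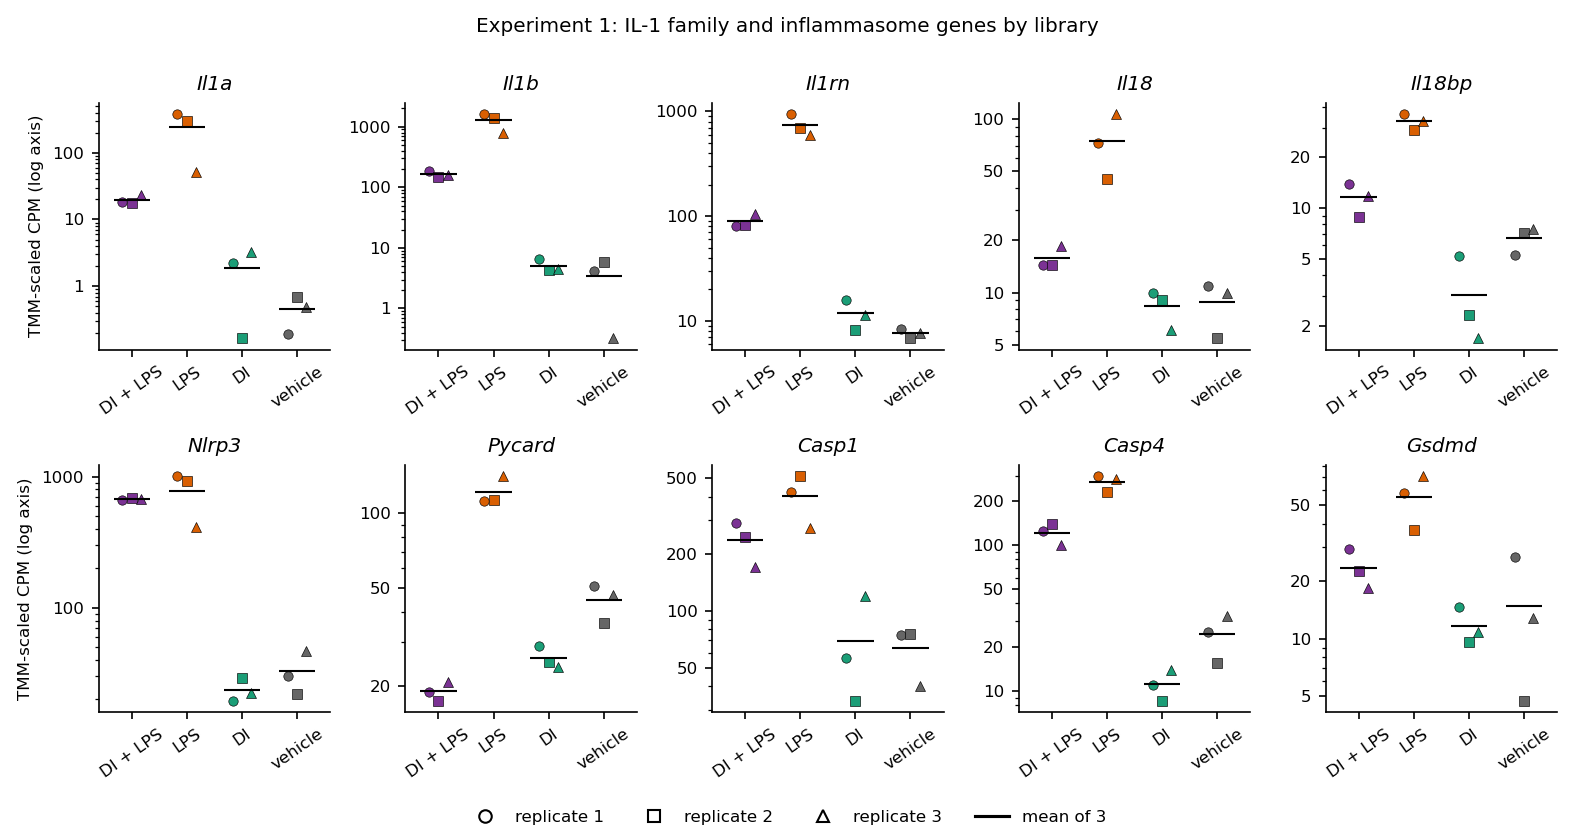
Levels of the 10 genes in experiment 1 in CPM on a log axis, 1 panel per gene, with groups ordered DI + LPS, LPS, DI and vehicle and 1 symbol per library. Il1b shows 149.7 to 186 CPM in the DI + LPS libraries, below the 781 to 1619.7 CPM of the LPS libraries, while Nlrp3 shows 663 to 689.5 CPM with DI + LPS, inside the 412 to 1009 CPM of the LPS libraries.

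The first comparison, LPS against vehicle, gives the response of the cells without DI. All 10 genes rose with LPS, where 34.3% of all genes tested were called, 16% as higher and 18.4% as lower. The members' median log2 fold change was 3.24, against -0.24 over all genes tested. Without LPS replicate 3 all 10 were called again, with log2 fold changes of 1.37 (Pycard) to 9.79 (Il1a) and 37.9% of all genes called.

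The IL-1 transcripts had the largest estimates. Il1b, the main secreted IL-1 of macrophages, had 1619.7, 1407 and 781 CPM in the LPS libraries, against 4.08, 5.78 and 0.320 CPM in the vehicle libraries. The groups were far apart and LPS replicate 3 was the lowest of its group. Il1b thus rose by 8.62 ± 0.65 on the log2 scale (SE, edgeR quasi-likelihood, Benjamini-Hochberg adjusted p = 1.6e-08). Il1a, whose protein is active without cutting by caspase-1, had 381, 295 and 50.9 CPM with LPS, against 0.194, 0.679 and 0.480 CPM with vehicle. The vehicle values rest on 7 counts in all 3 libraries together, so the log2 fold change of 9.26 ± 0.88 (adjusted p = 2.7e-07) has a wide interval, 7.41 to 11.1. LPS replicate 3 was again far below the other two.

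The antagonist and the IL-18 pair followed in smaller steps. Il1rn had 946, 692 and 598 CPM with LPS, against 8.44, 6.79 and 7.68 CPM with vehicle, a log2 fold change of 6.59 ± 0.38 (adjusted p = 9.6e-10). Il18 had 73.2, 44.9 and 107 CPM with LPS, against 11.0, 5.44 and 9.92 CPM with vehicle (log2 fold change 3.03 ± 0.41, adjusted p = 1.6e-05). For Il18bp the LPS libraries held 36.1, 29.2 and 32.7 CPM, against 5.24, 7.13 and 7.52 CPM with vehicle (2.31 ± 0.46, adjusted p = 0.00077). None of these 3 genes overlapped between the groups, and LPS replicate 3 was the highest of its group for Il18 and the lowest for Il1rn. The share of all genes without overlap was not counted in any comparison. Gaps between groups, here and further on, therefore describe the libraries of each gene only.

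Among the inflammasome genes, the sensor Nlrp3 had the largest estimate. It reached 1009, 927 and 412 CPM with LPS, against 30.4, 22.1 and 47.0 CPM with vehicle (log2 fold change 4.55 ± 0.40, adjusted p = 1.0e-07). Casp4 had 299, 231 and 287 CPM with LPS, against 25.5, 15.6 and 32.5 CPM with vehicle (3.46 ± 0.34, adjusted p = 4.3e-07). Casp1, the protease that cuts pro-IL-1β, had 425, 513 and 274 CPM with LPS, against 74.4, 75.4 and 40.3 CPM with vehicle (2.68 ± 0.43, adjusted p = 0.00011). These 3 genes rose with no overlap between groups, and Casp1 had its lowest value of each group in replicate 3. Pycard, the adaptor, had 112, 113 and 142 CPM with LPS, against 50.8, 36.0 and 46.6 CPM with vehicle (1.45 ± 0.29, adjusted p = 0.00076). Gsdmd, the pore former, had 58.0, 37.1 and 70.8 CPM with LPS, against 26.7, 4.76 and 12.8 CPM with vehicle (1.83 ± 0.47, adjusted p = 0.0060). Both sets of 3 libraries stood apart, the smallest gap being for Gsdmd between 37.1 CPM in an LPS library and 26.7 CPM in a vehicle library.

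The calls for Pycard and Gsdmd depend on scaling. With library totals alone in place of TMM, the median log2 fold change of all genes was -1.17 in place of -0.24, and the calls over all genes split into 853 higher and 4950 lower, against 1641 higher and 1888 lower with TMM. Pycard then had a log2 fold change of 0.46 (adjusted p = 0.20) and Gsdmd one of 0.82 (adjusted p = 0.16), and the other 8 members were called as higher. Relative to the median of all genes the members barely moved: Pycard stood 1.63 above it with totals and 1.68 with TMM, and Gsdmd stood 1.99 above it with totals and 2.07 with TMM.

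DI + LPS was then compared with LPS, which asks how pretreatment with DI changed transcripts in cells that all received LPS. Of the 10 genes 7 were called and all 7 fell: Il1a, Il1b, Il1rn, Il18, Il18bp, Pycard and Casp4. Over all genes 15.9% were called, 8.38% as higher and 7.53% as lower. The members' median log2 fold change was -1.86, against 0.13 over all genes. Nlrp3, Casp1 and Gsdmd did not pass the test. The 7 calls were also made without LPS replicate 3, where 18.3% of all genes were called.

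Il1b had 186, 149.7 and 162 CPM in the DI + LPS libraries, against 1619.7, 1407 and 781 CPM in the LPS libraries. Every DI + LPS library lay below every LPS library, and the DI + LPS libraries were close together. Il1b fell by 2.94 ± 0.49 on the log2 scale, 7.66-fold (adjusted p = 0.00056), and its log2 fold change was -3.21 without LPS replicate 3. Il1a had 18.4, 17.8 and 23.3 CPM with DI + LPS, against 381, 295 and 50.9 CPM with LPS, and fell by 3.63 ± 0.62, 12.4-fold (adjusted p = 0.00064). The groups did not overlap, and without LPS replicate 3 the log2 fold change was -4.11 (adjusted p = 6.8e-07).

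The antagonist was lower by a like factor. Il1rn had 80.4, 81.4 and 106 CPM with DI + LPS, against 946, 692 and 598 CPM with LPS, and fell by 3.06 ± 0.32, 8.36-fold (adjusted p = 7.5e-06), with a log2 fold change of -3.22 without LPS replicate 3. No library of one group reached the other. Il18 had 14.5, 14.4 and 18.6 CPM with DI + LPS, against 73.2, 44.9 and 107 CPM with LPS, and fell by 2.22 ± 0.40 (adjusted p = 0.0010). LPS replicate 3 was the highest Il18 library, and without it the log2 fold change was -1.93 (adjusted p = 0.00087). Il18bp had 13.9, 8.88 and 11.8 CPM with DI + LPS, against 36.1, 29.2 and 32.7 CPM with LPS, and fell by 1.50 ± 0.45 (adjusted p = 0.029). Its groups did not overlap, but its call was lost when any DI + LPS library or LPS replicate 1 was left out, with an adjusted p of up to 0.11, and with library totals alone (adjusted p = 0.073).

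Pycard and Casp4 passed the test among the inflammasome genes, and Nlrp3, Casp1 and Gsdmd did not. This split is one of threshold, since the Gsdmd estimate, -1.21, was no smaller in size than that of Casp4. Pycard had 18.8, 17.5 and 20.8 CPM with DI + LPS, against 112, 113 and 142 CPM with LPS, and fell by 2.68 ± 0.30, 6.39-fold (adjusted p = 1.4e-05), with a log2 fold change of -2.59 without LPS replicate 3. Casp4 had 125, 141 and 100.4 CPM with DI + LPS, against 299, 231 and 287 CPM with LPS, and fell by 1.16 ± 0.31, 2.23-fold (adjusted p = 0.018). Both genes were lower in every DI + LPS library, and the Casp4 call was lost without DI + LPS replicate 1 or 3, without LPS replicate 1 and with library totals alone (adjusted p = 0.069).

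Nlrp3 had 663, 689.5 and 673 CPM with DI + LPS, against 1009, 927 and 412 CPM with LPS. The DI + LPS libraries lay between LPS replicate 3 and the other two LPS libraries, so the groups overlapped, and the log2 fold change was -0.22 ± 0.35 (adjusted p = 0.72). Its 95% interval, -0.94 to 0.51, does not reach the estimate of Il1b or of Pycard. Without LPS replicate 3 both remaining LPS libraries exceeded all DI + LPS libraries, and the log2 fold change was -0.54 (adjusted p = 0.20). Casp1 had 290.2, 245 and 170.3 CPM with DI + LPS, against 425, 513 and 274 CPM with LPS, with 1 DI + LPS library above the lowest LPS library. Its log2 fold change was -0.78 ± 0.41 (adjusted p = 0.21), and -1.01 without LPS replicate 3 (adjusted p = 0.074). Gsdmd had 29.4, 22.7 and 18.3 CPM with DI + LPS, against 58.0, 37.1 and 70.8 CPM with LPS. Its groups did not overlap, yet the log2 fold change of -1.21 ± 0.47 did not pass after adjustment (adjusted p = 0.091), and DESeq2 gave an adjusted p of 0.043. A p above the threshold does not show that these 3 genes were at the same level in both groups.

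**Figure D2:**
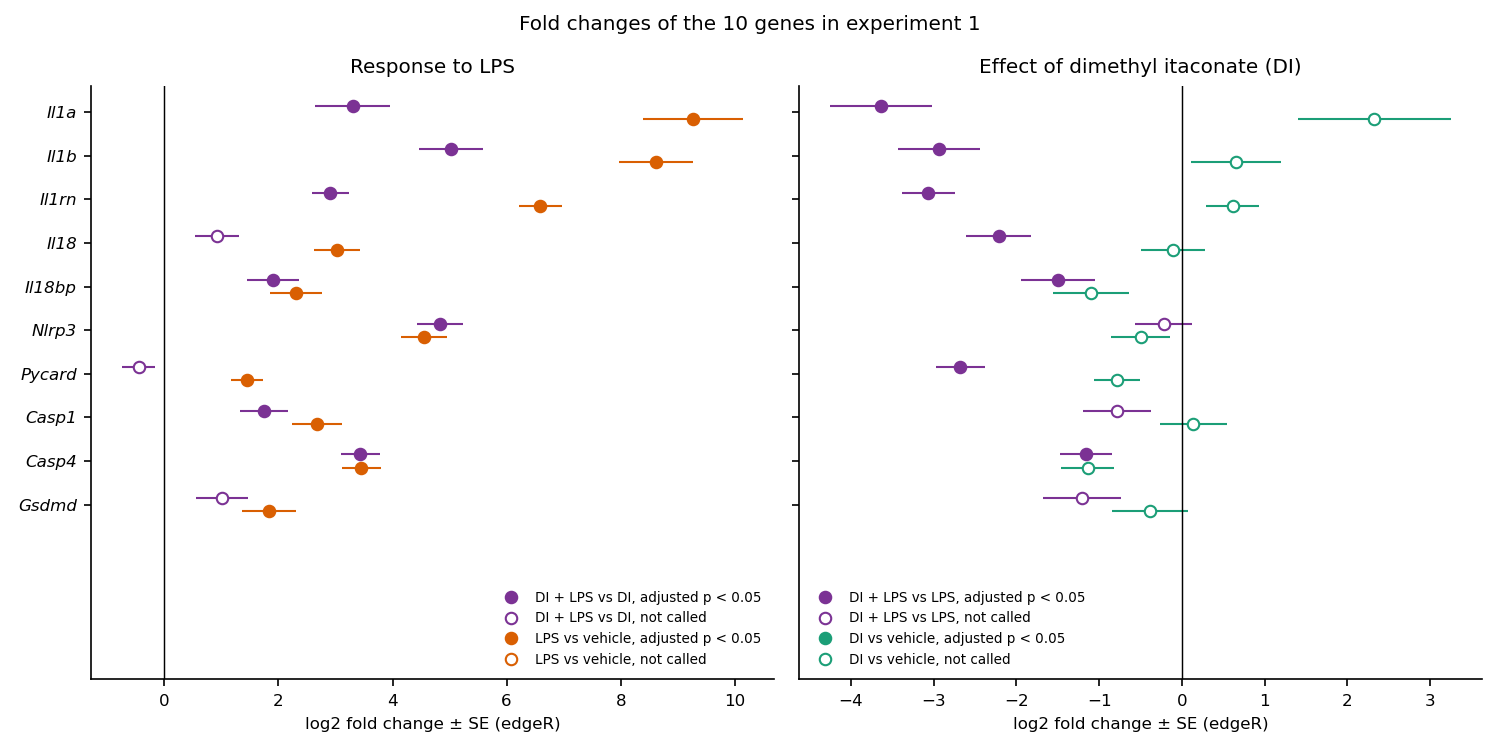
Log2 fold changes of the 10 genes in experiment 1 from edgeR, with bars of 1 standard error, groups of 3 libraries and filled symbols for called genes. The left panel holds the LPS response with DI and with vehicle, and the right panel the DI effect with and without LPS. The points for DI + LPS against LPS run from -3.63 for Il1a to -0.22 for Nlrp3, and the points for LPS against vehicle all lie above 0.

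DI + LPS against DI gives the LPS response of cells that had received DI. Of the 10 genes 7 rose (Il1a, Il1b, Il1rn, Il18bp, Nlrp3, Casp1 and Casp4), where 18.9% of all genes were called, 11.4% as higher and 7.56% as lower. This comparison shares the DI + LPS libraries with the one before it. Il1b had 186, 149.7 and 162 CPM with DI + LPS, against 6.47, 4.29 and 4.40 CPM with DI, and rose by 5.02 ± 0.55 (adjusted p = 2.4e-06). Nlrp3 had 663, 689.5 and 673 CPM with DI + LPS, against 19.7, 29.1 and 22.2 CPM with DI, and rose by 4.84 ± 0.41 (adjusted p = 9.9e-08). Il1a had 18.4, 17.8 and 23.3 CPM with DI + LPS, against 2.24, 0.165 and 3.25 CPM with DI, and rose by 3.30 ± 0.66 (adjusted p = 0.0013). In all 3 genes every DI + LPS library exceeded every DI library, and DI replicate 2 held hardly any Il1a.

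Il1rn had 80.4, 81.4 and 106 CPM with DI + LPS, against 15.8, 8.26 and 11.3 CPM with DI (log2 fold change 2.91 ± 0.32, adjusted p = 2.5e-06). Casp4 had 125, 141 and 100.4 CPM with DI + LPS, against 11.1, 8.59 and 13.9 CPM with DI (3.44 ± 0.34, adjusted p = 7.0e-07). Casp1 had 290.2, 245 and 170.3 CPM with DI + LPS, against 56.2, 33.7 and 119 CPM with DI (1.75 ± 0.42, adjusted p = 0.0055). These groups did not overlap, and the estimate for Casp4 was 3.44 in DI-treated cells beside 3.46 in vehicle-treated cells. Il18bp had 13.9, 8.88 and 11.8 CPM with DI + LPS, against 5.18, 2.31 and 1.68 CPM with DI (1.91 ± 0.46, adjusted p = 0.0058). The calls for Casp1 and Il18bp were lost with library totals alone (adjusted p = 0.066 and 0.054), which placed the median of all genes at -0.65 in place of -0.06 and split the calls over all genes into 709 higher and 2027 lower, against 1170 higher and 778 lower with TMM.

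Il18, Gsdmd and Pycard did not pass in DI-treated cells. Il18 had 14.5, 14.4 and 18.6 CPM with DI + LPS, against 9.88, 9.08 and 6.08 CPM with DI (log2 fold change 0.92 ± 0.39, adjusted p = 0.11). Gsdmd had 29.4, 22.7 and 18.3 CPM with DI + LPS, against 14.6, 9.58 and 10.8 CPM with DI (1.01 ± 0.46, adjusted p = 0.15). Neither of these 2 genes overlapped between the groups. Apart from leaving out libraries, each stayed uncalled in 6 of 8 alternatives and was called as higher in the others. Pycard had 18.8, 17.5 and 20.8 CPM with DI + LPS, against 29.1, 24.9 and 23.8 CPM with DI, an estimate below 0 (-0.45 ± 0.29, adjusted p = 0.32). With library totals alone Pycard was called as lower (log2 fold change -1.04, adjusted p = 0.021), while its distance below the median of all genes was -0.39 under either scaling. The 4 groups of Pycard libraries did not overlap anywhere: LPS held 112 to 142 CPM, vehicle 36.0 to 50.8, DI 23.8 to 29.1 and DI + LPS 17.5 to 20.8 CPM.

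The interaction of DI and LPS tests whether the LPS response differed between DI-treated and vehicle-treated cells. It was called as negative for Il1a, Il1b, Il1rn, Il18 and Pycard, 5 of 10 genes, with 2.91% of all genes called, 1.39% as positive and 1.52% as negative. All 5 were also called without LPS replicate 3, where 7.58% of all genes were called. The estimate for Il1a was -5.96 ± 1.08 (adjusted p = 0.0047), that is 9.26 with vehicle and 3.30 with DI. The estimate for Il1rn was -3.68 ± 0.45 (adjusted p = 0.00023) and that for Il1b was -3.60 ± 0.72 (adjusted p = 0.011). Il18 had -2.11 ± 0.55 (adjusted p = 0.046) and Pycard -1.89 ± 0.40 (adjusted p = 0.016). Both of the last calls were lost with library totals alone (adjusted p = 0.11 and 0.072), and 9 of 12 ways to leave out 1 library ended the call for Il18 (any vehicle, DI or DI + LPS library), with an adjusted p of up to 0.12. The call for Pycard was also lost without DI replicate 1 or DI + LPS replicate 1 or 2, with an adjusted p of up to 0.063.

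No interaction was called for the other 5 genes. For Casp4 the estimate was -0.02 ± 0.49 with an interval of -1.05 to 1.01 (adjusted p = 0.99), and for Nlrp3 it was 0.28 ± 0.49 with an interval of -0.76 to 1.32 (adjusted p = 0.83). These intervals do not reach the estimates of Il1b or Il1rn. Il18bp (-0.40 ± 0.64, adjusted p = 0.81), Casp1 (-0.92 ± 0.58, adjusted p = 0.43) and Gsdmd (-0.82 ± 0.65, adjusted p = 0.55) had negative estimates that did not pass the test, each with a 95% interval that includes 0.

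DI without LPS was compared with vehicle. None of the 10 was called by edgeR against vehicle, where 2.84% of all genes were called, 1.33% as higher and 1.51% as lower. At an unadjusted p under 0.05 the test counted 4 of the 10, against 13.8% of all genes, and DESeq2 and limma voom each called 2, where they called 6.36% and 14.4% of all genes. Without LPS replicate 3, which enters through the shared spread, 2 were called, Il1a as higher (log2 fold change 2.39, adjusted p = 0.034) and Casp4 as lower (-1.12, adjusted p = 0.020), with 7.56% of all genes called. The members' median log2 fold change was -0.25, against -0.05 over all genes.

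Casp4 had 11.1, 8.59 and 13.9 CPM with DI, against 25.5, 15.6 and 32.5 CPM with vehicle, with no overlap (log2 fold change -1.14 ± 0.32, adjusted p = 0.070). Pycard had 29.1, 24.9 and 23.8 CPM with DI, against 50.8, 36.0 and 46.6 CPM with vehicle, again with no overlap (-0.78 ± 0.28, adjusted p = 0.18). Il18bp had 5.18, 2.31 and 1.68 CPM with DI, against 5.24, 7.13 and 7.52 CPM with vehicle (-1.10 ± 0.46, adjusted p = 0.27), a narrow gap without overlap. For Casp4 the DI estimates with LPS, -1.16, and without LPS, -1.14, were close together. Of the remaining estimates that of Il1a was the largest, and the others lay on both sides of 0. Il1a had 2.24, 0.165 and 3.25 CPM with DI, against 0.194, 0.679 and 0.480 CPM with vehicle, on 51 counts against 7 (2.33 ± 0.93, adjusted p = 0.24). Its 95% interval, 0.38 to 4.27, excludes 0, though it did not pass after adjustment. Nlrp3 had 19.7, 29.1 and 22.2 CPM with DI, against 30.4, 22.1 and 47.0 CPM with vehicle (-0.50 ± 0.35, adjusted p = 0.60). Both overlapped between groups, and so did Il1b (0.66 ± 0.54), Il1rn (0.61 ± 0.32), Il18 (-0.11 ± 0.39), Casp1 (0.14 ± 0.41) and Gsdmd (-0.38 ± 0.46).

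Pairs of genes that act against each other were set side by side as ratios of counts within each library, which do not depend on scaling. Per 1 count of Il1b, the DI + LPS libraries held 0.432, 0.544 and 0.656 counts of Il1rn, against 0.584, 0.492 and 0.765 in the LPS libraries. The antagonist to cytokine ratio thus overlapped between the groups (mean 0.544 ± 0.112 with DI + LPS, 0.614 ± 0.139 with LPS, SD, n = 3 each, 2-sided exact permutation p = 0.5). The ratio of Il1a to Il1b was 0.0991, 0.119 and 0.144 with DI + LPS, against 0.235, 0.210 and 0.0651 with LPS (exact permutation p = 0.7). Without LPS replicate 3 both remaining LPS libraries exceeded all DI + LPS libraries for that ratio, and its log2 difference was -0.90 in place of -0.31. The ratio of Il18bp to Il18 was 0.959, 0.617 and 0.633 with DI + LPS, against 0.493, 0.650 and 0.305 with LPS (exact permutation p = 0.3). With 3 libraries against 3 no such test can go below 0.1. With that library left out the log2 difference was 0.00066 in place of -0.17 for Il1rn to Il1b, and 0.35 in place of 0.65 for Il18bp to Il18. The ratio of Nlrp3 to Il1b, chosen after its values were seen and not tested, was 4.11 ± 0.523 with DI + LPS and 0.603 ± 0.0677 with LPS (SD, n = 3 each), where LPS replicates 1 and 2 held 0.623 and 0.659.

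**Figure D3:**
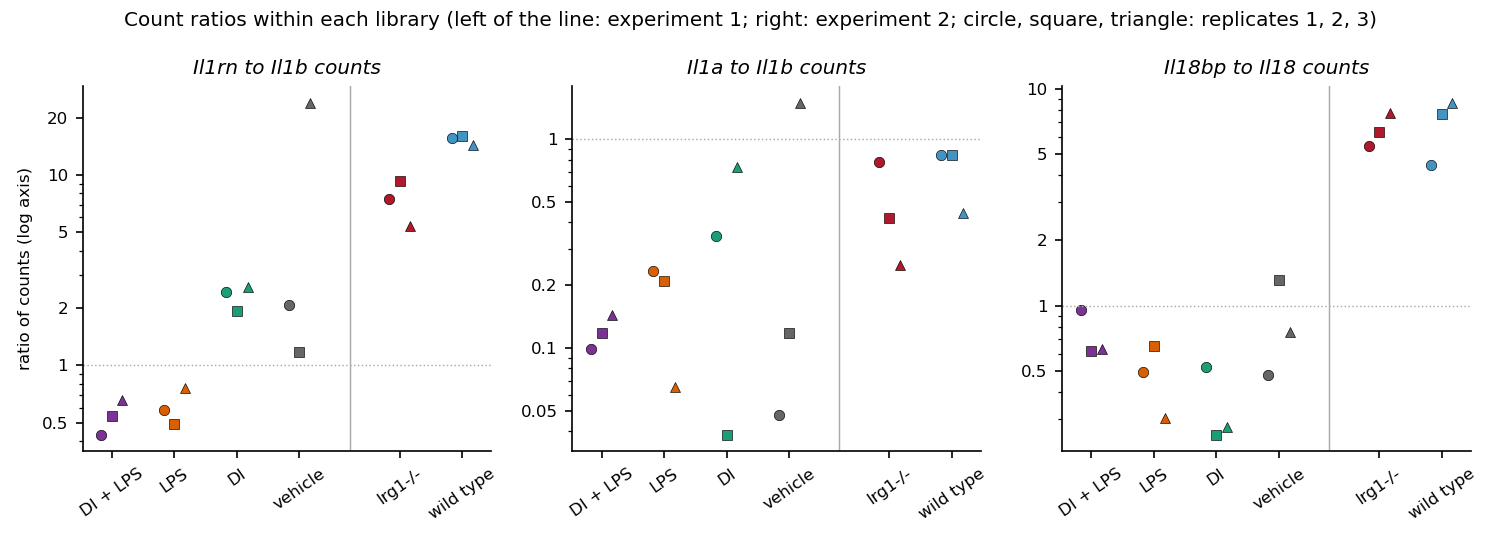
Count ratios within each library on a log axis, with experiment 1 left of the line (DI + LPS, LPS, DI, vehicle) and experiment 2 right of it (Irg1-/-, wild type), and 1 symbol per replicate. Il1rn counts per Il1b count lie at 0.432 to 0.656 with DI + LPS beside 0.492 to 0.765 with LPS, and at 5.38 to 9.28 in Irg1-/- cells below 14.5 to 16.1 in wild-type cells.

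Genes around the 10 were followed in 6 lists: other IL-1 family ligands, IL-1 family receptors and decoys, signalling below the receptors, other inflammasome sensors, inflammasome partners and regulators, and other caspases and gasdermins. Of 67 listed genes 48 had enough counts to be tested in experiment 1. With LPS against vehicle, 17 of 48 rose and 9 fell, where 16% of all genes rose and 18.4% fell. With DI + LPS against LPS, 5 of 48 rose and 12 fell, where 8.38% of all genes rose and 7.53% fell. When LPS replicate 3 was left out these counts were 20 and 10 with LPS against vehicle (37.9% of all genes called) and 8 and 15 with DI + LPS against LPS (18.3% of all genes called). In DI-treated cells LPS raised 15 and lowered 3 of 48, where 11.4% of all genes rose and 7.56% fell, or 17 and 6 without LPS replicate 3, where 26.6% of all genes were called. With LPS against vehicle the genes named by the smallest adjusted p included Gbp5 (log2 fold change 9.10), Gbp2 (7.37) and Tnfaip3 (5.63) among partners, Mefv (4.79), Nlrc5 (3.40) and Nlrp1b (-4.33) among sensors, and Casp12 (4.97) and Casp8 (2.13) among caspases. Myd88, the adaptor shared by the IL-1 and LPS receptors, rose by 2.65 and Irak2 by 2.66. All of these rose except Nlrp1b, which fell. Some rest on few counts: the vehicle group held 10 of Casp12 and 15 of Mefv, and the LPS group 5 of Nlrp1b.

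Of the 9 genes for receptors and decoys only Il1rap, the accessory chain that the IL-1 receptor needs to signal, passed the filter on counts. It averaged 10.8 ± 2.81 CPM with DI + LPS and 34.5 ± 16.6 CPM with LPS, and fell by 1.74 on the log2 scale (adjusted p = 0.0084). Below the receptors, Irak1, a kinase that relays the IL-1 signal, averaged 111 ± 26.3 CPM with DI + LPS and 34.3 ± 4.24 CPM with LPS and rose by 1.71 ± 0.34 (adjusted p = 0.0023). Map3k7, which encodes the kinase TAK1, rose by 1.32 (adjusted p = 0.013), while Tab2, which encodes a TAK1 binding partner, fell by 1.22 (adjusted p = 0.0077). With Irak2, which fell by 0.97 (adjusted p = 0.034), 2 of the 11 signalling genes rose and 2 fell.

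Of the 12 other inflammasome sensors tested, 3 rose with DI + LPS and 2 fell. Naip2, a receptor for bacterial secretion-system protein, averaged 173 ± 22.9 CPM with DI + LPS and 37.0 ± 10.6 CPM with LPS and rose by 2.22 ± 0.32 (adjusted p = 0.00014). Nlrc4, which assembles with NAIP proteins, averaged 18.7 ± 2.73 CPM with DI + LPS and 2.85 ± 3.19 CPM with LPS (2.29 ± 0.55, adjusted p = 0.0088). Nlrp1b, the sensor of anthrax lethal factor, averaged 9.36 ± 4.11 CPM with DI + LPS and 0.629 ± 0.665 CPM with LPS (3.36 ± 0.65, adjusted p = 0.0019), on 112 counts against 5. All 3 rose, while Aim2, the sensor of DNA in the cytosol, fell by 1.55 (adjusted p = 0.021) and Nlrp10 fell by 2.25 (adjusted p = 0.040) on 11 counts against 26. The Naip and Nlrp1 genes belong to families of close copies, so their counts may be divided between copies.

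Of 14 partners and regulators tested none rose and 4 fell. They include the guanylate-binding proteins, which act on bacterial membranes upstream of caspase-11: Gbp2 fell by 1.76 (adjusted p = 0.0010), Gbp3 by 2.11 (adjusted p = 0.0038) and Gbp5 by 1.42 (adjusted p = 0.0067). Tnfaip3, an inhibitor of NF-kappaB signalling, fell by 1.07 (adjusted p = 0.028). Of 9 other caspases, gasdermins and rupture genes tested 3 fell. Casp8, a death-receptor protease, averaged 103 ± 13.1 CPM with DI + LPS and 446 ± 180.0 CPM with LPS and fell by 2.11 ± 0.35 (adjusted p = 0.00047). Casp12, a neighbour and relative of Casp4, fell by 3.88 (adjusted p = 0.0069) on 13 counts against 87. Every gene named here for DI + LPS against LPS was also called in its direction without LPS replicate 3, among them Il1rap (-2.03), Irak1 (1.75), Naip2 (2.20), Nlrp1b (3.15), Nlrc4 (2.00), Gbp3 (-2.44), Casp8 (-1.75) and Casp12 (-4.06). The interaction was called for Gbp5 (-2.95, adjusted p = 0.0030) and Gbp2 (-2.31, adjusted p = 0.0078) as negative, and for Nlrp1b (3.24, adjusted p = 0.029) and Nlrc4 (2.69, adjusted p = 0.046) as positive, 4 of 48 genes, where 2.91% of all genes were called. With DI alone, Gbp5 rose by 1.53 (adjusted p = 0.035), Cd14, the LPS co-receptor, fell by 1.42 (adjusted p = 0.022), and P2rx7, the ATP-gated channel that triggers NLRP3, fell by 1.21 (adjusted p = 0.045).

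**Figure D4:**
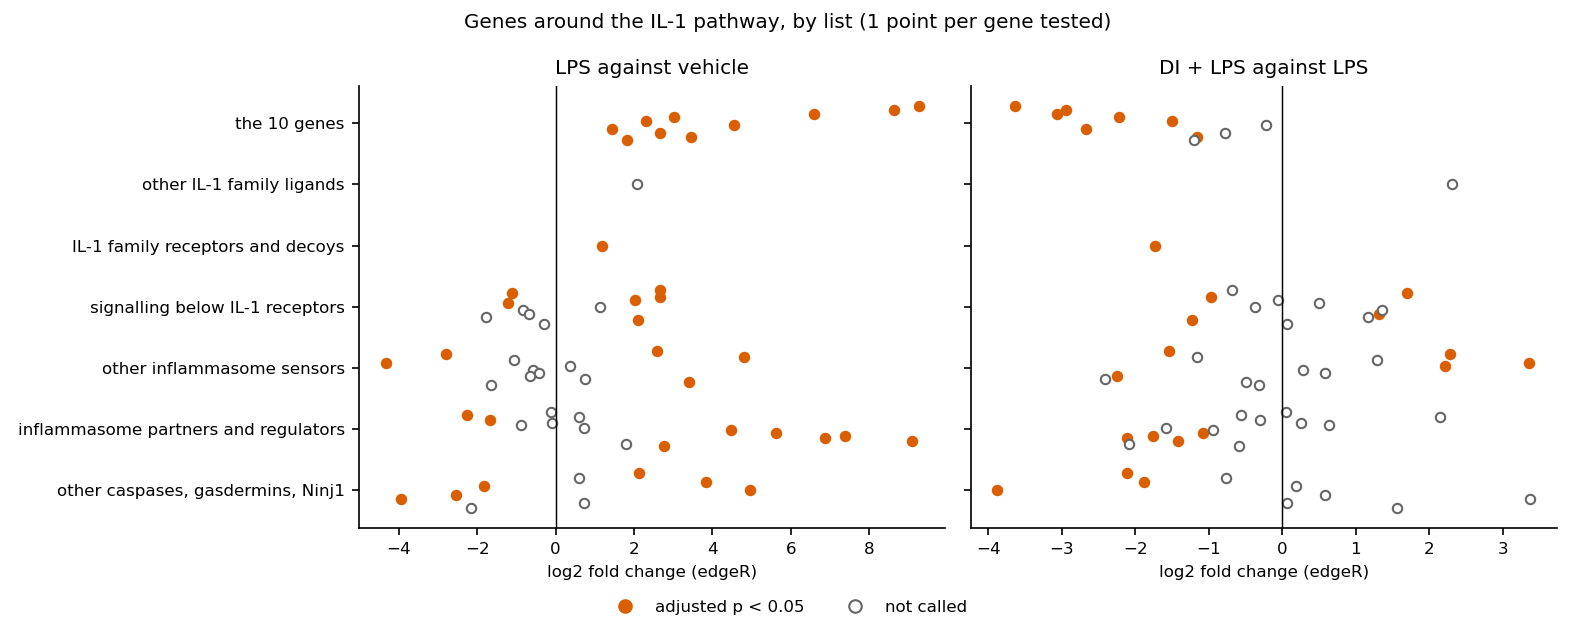
Log2 fold changes from edgeR of the tested genes in each list around the IL-1 pathway, 1 point per gene, with called genes marked. For DI + LPS against LPS the sensors Naip2 (2.22), Nlrc4 (2.29) and Nlrp1b (3.36) lie to the right of 0, and Gbp2 (-1.76), Casp8 (-2.11) and Casp12 (-3.88) lie to the left.

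The genes whose pattern over the 12 libraries was most like that of a member were found by the root mean square difference of centred log2 CPM, over 10284 other genes. Hdc (0.370), which encodes the enzyme that makes histamine, was closest to Il1rn, followed by AA467197 (0.384), Slco3a1 (0.468), Tnfsf4 (0.540) and Slc2a6 (0.568), where the median of all genes was 2.90. Cxcl11 (0.770), AA467197 (0.825), Nos2 (0.838), Cxcl9 (0.838) and Gbp4 (0.879) were closest to Il1a, and Il1rn was its nearest member at rank 7 (0.902). For Il1b the list was Cd40 (0.617), Cd69 (0.697), Lhx2 (0.826), Ifi213 (0.844) and Ccl12 (0.864), with Il1a at rank 30 (1.18). For Il18bp it was Glrx (0.406), Sgcb (0.433), Dbnl (0.445), Psmb8 (0.460) and Lyn (0.461), with Il18 at rank 117 (0.631). These distances describe the 12 libraries only and carry no test.

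In experiment 2 the knocked-out gene was checked first. Acod1 had 28.4, 14.8 and 31.4 CPM in the Irg1-/- libraries, against 4131, 4665 and 4225 CPM in the wild-type libraries. The treatment text of the wild-type samples names Irg1-/- cells, while their genotype label says wild type. These Acod1 levels go with the genotype labels, which were followed. None of the 10 genes was called between genotypes by edgeR, where 6 of 9491 genes were called (0.0632%). At an unadjusted p under 0.05 the test counted 4 of the 10, against 7.01% of all genes, and neither DESeq2 nor limma voom called any, where they called 0.379% and 0.0632% of all genes. The members' median log2 fold change was -0.04, against 0.01 over all genes.

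Same-numbered libraries of the 2 genotypes deviated together in all 3 pairs. The labels do not say what these numbers mean, so the pairing was inferred from these same data. With the replicate number as a block 4 of the 10 genes were called, where 6.26% of all genes were called, 2.9% as higher and 3.36% as lower. These calls depend on that choice of design. Il1b had 92.3, 74.6 and 139 CPM in Irg1-/- cells, against 69.9, 57.4 and 77.2 CPM in wild-type cells. The groups overlapped, but each Irg1-/- library exceeded its wild-type partner (log2 fold change 0.58 ± 0.25, adjusted p = 0.67, and 0.56 ± 0.13, adjusted p = 0.0035, with the block). Il1rn had 689, 692 and 750.3 CPM in Irg1-/- cells, against 1097, 921 and 1116 CPM in wild-type cells, without overlap (-0.56 ± 0.17, adjusted p = 0.52, and -0.55 ± 0.09, adjusted p = 4.6e-05, with the block). Nlrp3 had 112, 116 and 81.8 CPM in Irg1-/- cells, against 87.2, 75.6 and 53.0 CPM in wild-type cells (0.53 ± 0.23, adjusted p = 0.68, and 0.53 ± 0.12, adjusted p = 0.0039, with the block). Pycard had 53.7, 46.3 and 43.0 CPM in Irg1-/- cells, against 37.8, 25.2 and 35.3 CPM in wild-type cells (0.54 ± 0.22, adjusted p = 0.64, and 0.54 ± 0.16, adjusted p = 0.032, with the block). In every pair Nlrp3 and Pycard were higher in the Irg1-/- library.

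The remaining 6 genes were called in neither fit. Il1a had 71.8, 31.2 and 35.1 CPM in Irg1-/- cells, against 59.0, 48.1 and 34.2 CPM in wild-type cells (-0.02 ± 0.32). Il18 averaged 40.7 ± 6.17 CPM in Irg1-/- cells and 42.3 ± 12.2 CPM in wild-type cells (SD, n = 3 each). Il18bp averaged 261 ± 30.3 CPM in Irg1-/- cells and 275 ± 36.9 CPM in wild-type cells. All 3 overlapped between genotypes. Casp1 averaged 531 ± 121 CPM in Irg1-/- cells and 610.4 ± 162 CPM in wild-type cells (-0.20 ± 0.24, and -0.19 ± 0.093 with the block). Casp4 averaged 187 ± 51.4 CPM in Irg1-/- cells and 228 ± 59.6 CPM in wild-type cells (-0.28 ± 0.25, adjusted p = 0.94, and -0.29 ± 0.10, adjusted p = 0.093, with the block). Both caspases were lower in the Irg1-/- library of every pair, and their intervals with the block, -0.38 to -0.0026 for Casp1 and -0.50 to -0.079 for Casp4, exclude 0, though neither passed after adjustment. Gsdmd averaged 55.4 ± 12.7 CPM in Irg1-/- cells and 56.9 ± 7.18 CPM in wild-type cells (-0.04 ± 0.22).

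The ratio of Il1rn to Il1b counts was 7.46, 9.28 and 5.38 in Irg1-/- libraries, against 15.7, 16.1 and 14.5 in wild-type libraries. The groups did not overlap and the ratio was 2.14-fold lower in Irg1-/- cells (mean 7.37 ± 1.95 in Irg1-/- cells, 15.4 ± 0.836 in wild-type cells, SD, n = 3 each). The 2-sided exact permutation p was 0.1, the smallest that 3 libraries against 3 allow. The ratio was lower in the Irg1-/- library of all 3 pairs, with a paired exact sign-flip permutation p of 0.25, the smallest that 3 pairs allow. The ratio of Il1a to Il1b (exact permutation p = 0.2) and that of Il18bp to Il18 (exact permutation p = 1) overlapped between genotypes. Il1a to Il1b was nevertheless lower in the Irg1-/- library of all 3 pairs (0.777, 0.418 and 0.252 in Irg1-/- libraries, against 0.844, 0.839 and 0.443 in wild-type libraries, paired exact permutation p = 0.25).

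**Figure D5:**
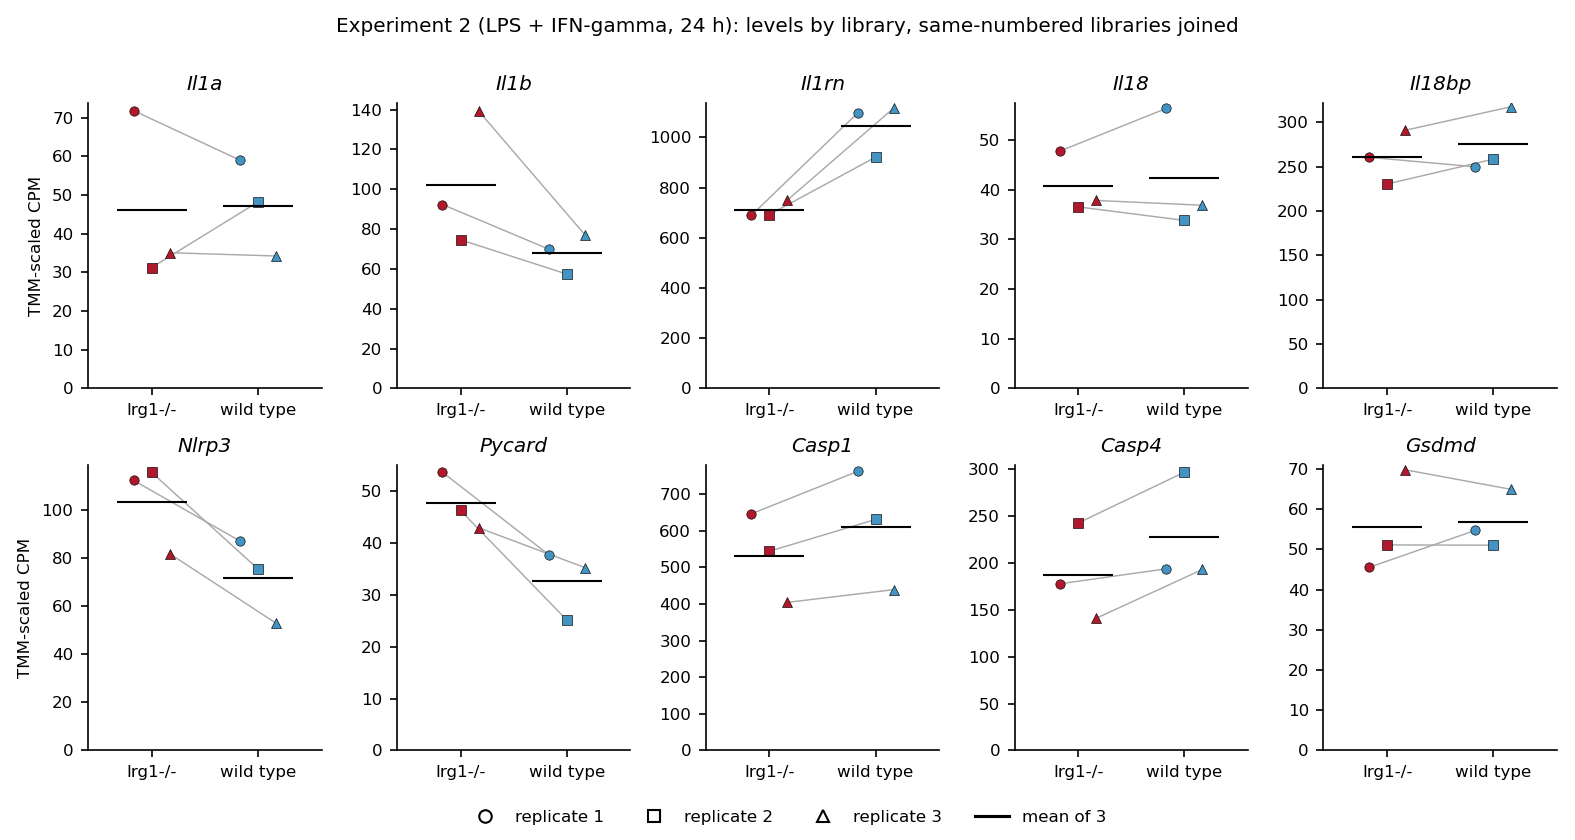
Levels of the 10 genes in experiment 2 in CPM on a linear axis, with Irg1-/- libraries left of wild-type libraries. Each replicate number has 1 symbol, and lines join same-numbered libraries. Il1rn lies at 689 to 750.3 CPM in Irg1-/- cells, below 921 to 1116 CPM in wild-type cells, and Pycard at 43.0 to 53.7 CPM in Irg1-/- cells, above 25.2 to 37.8 CPM in wild-type cells.

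Of the genes around the pathway none was called between genotypes by edgeR, DESeq2 or limma voom, and 6 of 48 had an unadjusted p under 0.05, against 7.01% of all genes. With the replicate block 5 of 48 were called, against 6.26% of all genes. Irak3, an inhibitor of IL-1 receptor signalling, rose by 0.65 (adjusted p = 0.0019), and Nlrp1b rose by 0.98 (adjusted p = 0.0011). Txnip, which binds NLRP3, rose by 0.40 (adjusted p = 0.0050) and Gbp5 by 0.35 (adjusted p = 0.036), while Cd14 fell by 0.45 (adjusted p = 0.0053). Macrophage markers summed to 2159 to 2596 CPM in Irg1-/- cells and 2360.4 to 2668 CPM in wild-type cells. Neutrophil markers summed to 8.81 to 12.7 CPM in Irg1-/- cells and 11.7 to 18.9 CPM in wild-type cells. Dendritic cell markers summed to 13.5 to 20.0 CPM in Irg1-/- cells and 18.5 to 23.2 CPM in wild-type cells. These ranges overlapped, yet each of these lists summed lower in the Irg1-/- library of every same-numbered pair. Stromal markers went the other way in replicate 2 (14.3 CPM in Irg1-/- cells, 9.57 in wild-type cells). The part of these marker differences in the results was not tested.

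On GRCm38, the build of the deposited counts, Il1a (chr2:129299609-129310186), Il1b (chr2:129364569-129371164) and Il1rn (chr2:24336860-24351491) share a chromosome, as do Il18 (chr9:50554700-50581841), Casp1 (chr9:5298517-5307281) and Casp4 (chr9:5308849-5336791), the last pair being neighbours. Il18bp lies at chr7:102015074-102018232, Pycard at chr7:127991373-127993867, Nlrp3 at chr11:59541569-59566955 and Gsdmd at chr15:75862144-75867408. Annotated genes on the other strand overlap Il1a (Gm14023), Il1b (Il1bos), Il18 (Bco2 and Tex12), Pycard (Gm45205) and Il18bp, whose 3′ end meets that of Numa1. The strand setting of the counting is not given in the sources used here, so counts of these genes may include reads of their partners. Casp1, Casp4 and Casp12 are related in sequence, and reads shared between them could be divided or lost.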

How the data were processed

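Both deposited tables hold raw read counts per gene with Entrez identifiers, per the file headers, and the values were checked to be whole numbers with a different total in every column. Per the labels, libraries were made from the 3′ end of polyadenylated RNA with barcodes in the oligo-dT primer, combined according to Actb abundance and amplified in 12 rounds of PCR, so a count does not scale with transcript length. STAR, HTSeq, DESeq2 and build mm10 are named in the submitters' processing notes without versions. The annotation and the strand option of the counting are not given in the sources used here. No molecular identifiers are described, so PCR copies are counted and counting floors (3 counts were 0.393 to 3.14 CPM in experiment 1) cover counting error only.

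Of 24052 genes 23969 were matched to a symbol. All libraries of an experiment entered 1 fit in edgeR 4.0.16 (R 4.3.3): filterByExpr with a minimum count of 10, TMM scaling, a mean per group, a quasi-likelihood F test (2-sided, prior count 0.125), and Benjamini-Hochberg adjustment over 10285 genes (experiment 1, 8 residual degrees of freedom) or 9491 genes (experiment 2, 4 residual degrees of freedom). Standard errors and 95% intervals were derived from the fit. The test was run on simulated counts with known changes beforehand. Ratios of counts were compared by an exact permutation test over libraries. Replicate numbers come from the titles. In experiment 2 the deviations of same-numbered libraries from their group means had correlations of 0.354 to 0.455 in the 3 pairs. The numbers were therefore taken to pair the libraries. The fit with a block is given beside the one without it. Differently numbered libraries were not compared, so these correlations cannot show that the numbers mark pairs. The block also leaves fewer than the 4 residual degrees of freedom of the fit without it.

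The 10 genes, the gene lists around them and the tests were chosen with earlier results of these data known. All 10 are named in every comparison. From each list, up to 3 called genes with the smallest adjusted p were named, and for the block fit of experiment 2 every called gene. Genes that complete a count (Irak2, Aim2, Nlrp10, Tnfaip3) were named after their values were seen. One gene that the rule names is not reported here. Pattern neighbours are the 5 genes with the smallest distance to Il1a, Il1b, Il1rn and Il18bp. Alternatives were other scalings (library totals, DESeq2 size factors), count minimums of 0 and 30, DESeq2 1.42.0, limma 3.58.1 voom, fits on the compared groups alone, a replicate block and leaving out each library. Promoter windows are RefSeq entries on GRCm38.p6.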

Additional observations from a re-analysis of the deposited data

Results flagged for a closer look

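For 5 genes the effect of DI differed between cells with and without LPS, by the interaction term of the edgeR quasi-likelihood fit on 12 libraries. Il1a had the largest estimate, -5.96 on the log2 scale (Benjamini-Hochberg adjusted p = 0.0047): with LPS its DI estimate was -3.63 and without LPS it was 2.33. For Il1b the interaction was -3.60, from -2.94 with LPS and 0.66 without LPS. For Il1rn it was -3.68, from -3.06 with LPS and 0.61 without LPS. For Il18 it was -2.11, from -2.22 with LPS and -0.11 without LPS, and for Pycard it was -1.89, from -2.68 with LPS and -0.78 without LPS. None of the 5 estimates without LPS passed its own test, and the Il1a estimate there rests on 51 counts with DI and 7 with vehicle. Without LPS replicate 3 the values were -6.51 for Il1a, -3.92 for Il1b, -3.86 for Il1rn, -1.84 for Il18 and -1.83 for Pycard.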

How the results depend on the processing

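Across the alternatives 1129 values were recomputed: 1048 kept their direction and their side of the threshold, 30 lost a call, 21 gained one and 30 changed direction, none of them for a gene that had been called. Counts of called members were 10 for LPS against vehicle (8 with library totals alone), 5 to 8 of 10 for DI + LPS against LPS, and 6 to 9 for DI + LPS against DI. The counts for DI + LPS against DI mix directions. With library totals alone they include Pycard as lower (log2 fold change -1.04), while Casp1 and Il18bp lost their calls as higher. For the interaction 3 members were called with library totals alone against 5 with TMM, and 3 to 5 when each library was left out in turn. For DI against vehicle the count of 0 became 1 without a filter on low counts, 2 with DESeq2, 2 with limma voom, 1 with only the compared groups in the fit, and 0 to 2 when each library was left out. Library totals alone moved the median of all genes to -1.17 for LPS against vehicle, -0.65 for DI + LPS against DI and 0.52 for the interaction, and split the calls over all genes into 901 higher and 527 lower (TMM 862 and 774) for DI + LPS against LPS, 72 and 194 (TMM 137 and 155) for DI against vehicle, and 215 and 86 (TMM 143 and 156) for the interaction. With only the compared groups in the fit, calls over all genes were 653 against 1636 for DI + LPS against LPS, 2108 against 3529 for LPS against vehicle, 1013 against 292 for DI against vehicle and 3196 against 1948 for DI + LPS against DI. Adding the replicate block to that fit of DI + LPS against LPS, an alternative chosen after seeing the data, gave 779 calls and 6 members. In experiment 1 only 6 of 18 same-numbered pairs had a correlation above 0.1, so the numbers were not taken to pair the libraries. Correlations were 0.0970 to 0.174 between DI + LPS and LPS, 0.0581 to 0.210 between DI and vehicle, and -0.141 to 0.231 over all pairs. Differently numbered libraries were not compared, so these values cannot show that pairing is absent. The replicate block in experiment 1 gave 1464 calls against 1636 for DI + LPS against LPS, with 7 members, and 4 members for the interaction. In experiment 2, where the numbers were taken to pair the libraries, the replicate block called 4 members against 0, and 594 genes against 6. For that comparison DESeq2 called 36 genes and no filter 40, none of them a member. DESeq2 called 816 genes for the interaction against 299, and 654 for DI against vehicle against 292. Limma voom called 1486 genes for DI against vehicle, 3657 for DI + LPS against DI and 485 for the interaction, and no filter called 458 for DI against vehicle and 497 for the interaction. Leaving out DI + LPS replicate 1 gave 885 calls for DI + LPS against LPS, and leaving out its replicate 2 gave 1003. Estimates near 0 changed sign: Casp1 for DI against vehicle was -0.038 with library totals, Casp4 for the interaction was 0.37 with library totals, 0.095 with limma voom and 0.0014 with the replicate block, and between genotypes Il1a was 0.023 and Gsdmd 0.0054 with library totals. Leaving out 1 library at a time gave ranges across 0 of -0.49 to 0.48 for Casp1, -0.76 to 0.37 for Gsdmd and -0.32 to 0.086 for Il18 in DI against vehicle, of -0.26 to 0.21 for Casp4, -0.70 to 0.23 for Il18bp and -0.059 to 0.53 for Nlrp3 in the interaction, of -0.54 to 0.051 for Nlrp3 in DI + LPS against LPS, and of -0.23 to 0.093 for Gsdmd, -0.19 to 0.20 for Il18, -0.15 to 0.047 for Il18bp and -0.49 to 0.19 for Il1a between genotypes. The cause of these changes was not tested. Depth limits Il1a most, since the vehicle libraries held 7 counts of it in all.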

Other observations

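The ratio of Nlrp3 to Pycard counts, sensor over adaptor, was chosen after its values were seen and was not tested. It averaged 35.7 ± 3.62 with DI + LPS and 6.69 ± 3.30 with LPS (SD, n = 3 each), where LPS replicates 1 and 2 held 8.99 and 8.17. In cells without LPS the ratio of Il1rn to Il1b counts was 2.44, 1.92 and 2.57 with DI, against 2.07, 1.18 and 24.0 with vehicle, where the last value comes from the vehicle library with the least Il1b (0.320 CPM).

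Acod1, the gene whose product makes itaconate, had 11581, 22173 and 9067 CPM with DI + LPS, against 17097, 20535 and 6992 CPM with LPS, and the groups overlapped. Without LPS it had 125, 46.1 and 109 CPM with DI, against 12.6, 17.0 and 9.28 CPM with vehicle, and the groups did not overlap.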
